A study of Mus musculus with 10 samples.

Results

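Aminoacyl-tRNA synthetases are the enzymes that join each amino acid to its transfer RNA (tRNA), and 36 genes for them were followed: 20 for the cytosolic enzymes and 16 for the enzymes of the mitochondrion. The genes were picked by name, as a family, from the 24391 genes in the count files, and a symbol that ends in 2 marks a mitochondrial enzyme. All 36 had enough reads to be tested.

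The RNA came from 5 mouse cell lines (G4314, G9351, G9488, G9529, G9577), each labelled as derived from small cell lung cancer (SCLC). By the labels, all 10 cultures carry the same alleles: altered Rb and p53 genes, TRE-MYCN, which is a MYCN transgene behind a tetracycline-responsive promoter, and LSL-RTTA, the conditional activator that drives this promoter when doxycycline is present. For each line there was 1 library of cells kept in doxycycline (MYCN on, 5 libraries) and 1 of cells withdrawn from it for 4 days (MYCN off, 5 libraries), so by the labels the groups differ only in doxycycline and the transgene it controls. No culture had doxycycline without the transgene, and effects of the drug itself cannot be told apart from those of MYCN.

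Total counts ran from 9586465 to 11960074 per library. Mycn, the check of the labels, rose in 5 of 5 lines (log2 change 2.86, SE 0.38). From which species the transgene was taken is unknown here, and if its sequence differs from mouse Mycn, some of its reads may be missing from this value. Lines G4314, G9351, G9488 and G9529 had the neuroendocrine markers of SCLC, with a summed level over 9 markers of 3191 to 6274 CPM (counts scaled to the library's effective size, which is the total over the genes tested times its TMM factor). G9577 did not: its sums were 223 (on) and 170 CPM (off), Dll3 was at 0 in both of its libraries, and its 9 mesenchymal markers summed to 5605 (on) and 18360 CPM (off), against 5.23 to 23.9 CPM in the other lines. Its 4 epithelial markers summed to 9.97 (on) and 39.9 CPM (off), against 1612 to 3237 CPM elsewhere. Markers of immune cells summed to 60.9 CPM in G9577 with MYCN off and to at most 5.80 CPM in any other library. Those of endothelium summed to at most 2.26 CPM in any library. Results are therefore given with G9577 and, where it matters, without it. What part the makeup of this line plays in its values was not tested.

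Every round of protein synthesis draws on charged tRNA, so these enzymes are housekeeping genes. Most amino acids have 1 enzyme in the cytosol and a separate one, also coded in the nucleus, for the ribosomes inside mitochondria. Several of the cytosolic enzymes are held together in the multi-synthetase complex, and many of their genes are known targets of ATF4, the transcription factor switched on when amino acids run short. MYC family proteins are known to raise genes of ribosome making and translation, and they bind the E-box, CACGTG.

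The promoters show what sequence these genes carry at their starts. RefSeq windows of 300 bases (250 before the annotated start and 50 after it, build GRCm38.p6) were found for 27 of the 36 genes, 13 cytosolic and 14 mitochondrial, with Mars listed there as Mars1. The other 9 had no window and were not searched: Cars, Hars, Lars, Nars, Rars, Vars, Wars, Hars2 and Pars2. For Aars2, which had 2 windows, only the first by coordinate was searched. The shares over all windows given below count every window of a gene. Both strands were searched for the E-box CACGTG, for the C/EBP-ATF element TGATGNAA that ATF4 binds with its partners, and for the cyclic AMP response element TGACGTCA. Shown are all members with a match, from 150 bases before the start to 30 after it on the coding strand, with the matches in capitals. The 8-base runs in capitals are the C/EBP-ATF element, on the gene's own strand in Yars and reversed in the others, and the 6-base runs are the E-box.
Aars: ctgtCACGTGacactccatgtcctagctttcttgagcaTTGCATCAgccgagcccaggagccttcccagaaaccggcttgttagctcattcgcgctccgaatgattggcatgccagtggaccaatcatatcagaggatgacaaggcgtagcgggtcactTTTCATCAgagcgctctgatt
Gars: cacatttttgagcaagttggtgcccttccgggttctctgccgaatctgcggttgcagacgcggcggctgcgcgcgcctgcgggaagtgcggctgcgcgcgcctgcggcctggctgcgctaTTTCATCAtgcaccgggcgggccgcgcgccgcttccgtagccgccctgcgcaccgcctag
Iars: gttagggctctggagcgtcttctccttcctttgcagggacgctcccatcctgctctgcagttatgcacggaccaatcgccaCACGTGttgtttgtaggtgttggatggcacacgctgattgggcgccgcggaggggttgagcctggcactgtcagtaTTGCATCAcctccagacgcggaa
Tars: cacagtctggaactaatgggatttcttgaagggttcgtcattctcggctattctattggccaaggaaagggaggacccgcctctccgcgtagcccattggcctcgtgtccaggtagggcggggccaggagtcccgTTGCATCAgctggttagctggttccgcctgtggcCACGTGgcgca
Yars: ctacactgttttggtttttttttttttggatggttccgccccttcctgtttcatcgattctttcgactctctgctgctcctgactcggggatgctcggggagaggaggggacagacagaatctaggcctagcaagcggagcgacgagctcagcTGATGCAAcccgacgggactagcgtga
Farsb: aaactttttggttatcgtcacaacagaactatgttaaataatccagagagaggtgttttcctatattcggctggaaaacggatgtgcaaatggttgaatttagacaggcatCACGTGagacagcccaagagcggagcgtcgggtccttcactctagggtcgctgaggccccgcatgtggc
Ears2: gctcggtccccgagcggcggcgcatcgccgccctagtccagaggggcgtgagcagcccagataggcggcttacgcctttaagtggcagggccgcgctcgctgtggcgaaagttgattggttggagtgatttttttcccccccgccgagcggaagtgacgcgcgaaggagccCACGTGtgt

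These stretches lie at chr8:111033692-111033871 (plus strand) for Aars, chr6:55037851-55038030 (plus strand) for Gars, chr13:49681980-49682159 (plus strand) for Iars, chr15:11399629-11399808 (minus strand) for Tars, chr4:129189753-129189932 (plus strand) for Yars, chr1:78488868-78489047 (minus strand) for Farsb and chr7:122067057-122067236 (minus strand) for Ears2. The C/EBP-ATF element was in 5 of 13 cytosolic windows (38.5%) and in 0 of 14 mitochondrial ones, against 3.97% of all 32851 windows in the table. It began at -112 and 10 in Aars, -30 in Gars, 8 in Iars, -15 in Tars and 4 in Yars, counted from the start, so that all 6 copies lay within 112 bases of it. The E-box was in 4 of 13 cytosolic windows (30.8%), at -146 in Aars, -39 in Farsb, -69 in Iars and 20 in Tars. Among mitochondrial windows 1 of 14 had it (7.14%), at 22 in Ears2, and the share over all windows was 7.15%. No match overlapped another, and the cyclic AMP response element was in none of the 27 windows and in 1.79% of all. A match describes the letters only, and binding was not measured here.

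With MYCN on, 19 of the 20 cytosolic genes rose and 0 fell, with Wars as the exception. Of the 16 mitochondrial genes 7 rose and 0 fell. Over all 12835 genes tested, 31.0% were called, 15.3% higher and 15.6% lower (edgeR's quasi-likelihood test with the line as block, Benjamini-Hochberg adjusted p under 0.05). The median fitted log2 change was 1.17 for the cytosolic genes, or 2.25-fold, 0.45 for the mitochondrial genes, or 1.37-fold, and -0.08 for all genes tested. A rise of at least 2-fold was called for 12 cytosolic and 3 mitochondrial genes, against 5.93% of all genes. Without G9577 the counts were again 19 and 7, and 2244 of all 12925 genes tested were called higher. Without G9351 the counts were 12 and 4, the lowest for any line left out, and 813 of all 12870 genes were called higher. Every cytosolic log2 change stayed above 0 in each fit with a line left out. With no term for the line, edgeR called 10 and 0 higher, with 17 and 4 at an unadjusted p under 0.05. The same fit called 215 of all 12835 genes higher and gave 2840 an unadjusted p under 0.05. The mitochondrial 4 of 16 was thus near the share of all genes. Marker sums also moved with MYCN. The neuroendocrine sum was 0.582, 0.652, 0.626 and 0.698 times as high with MYCN on as with MYCN off in G4314, G9351, G9488 and G9529, and 1.32 times as high in G9577. The epithelial sum was 0.591, 0.641, 0.952, 0.694 and 0.25 times as high in the same order, with G9577 last, and the mesenchymal sum of G9577 was 0.305 times as high. The immune sum of G9577 was 0.0582 times as high. In the other lines, at 5.80 CPM or less, the immune sum was 0.95 to 3.13 times as high. The part of these shifts in the synthetase changes was not tested. All levels are relative to the effective library size, and in bulk RNA a shift in which cells make up a culture cannot be told apart from a change in RNA per cell.

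**Figure D1:**
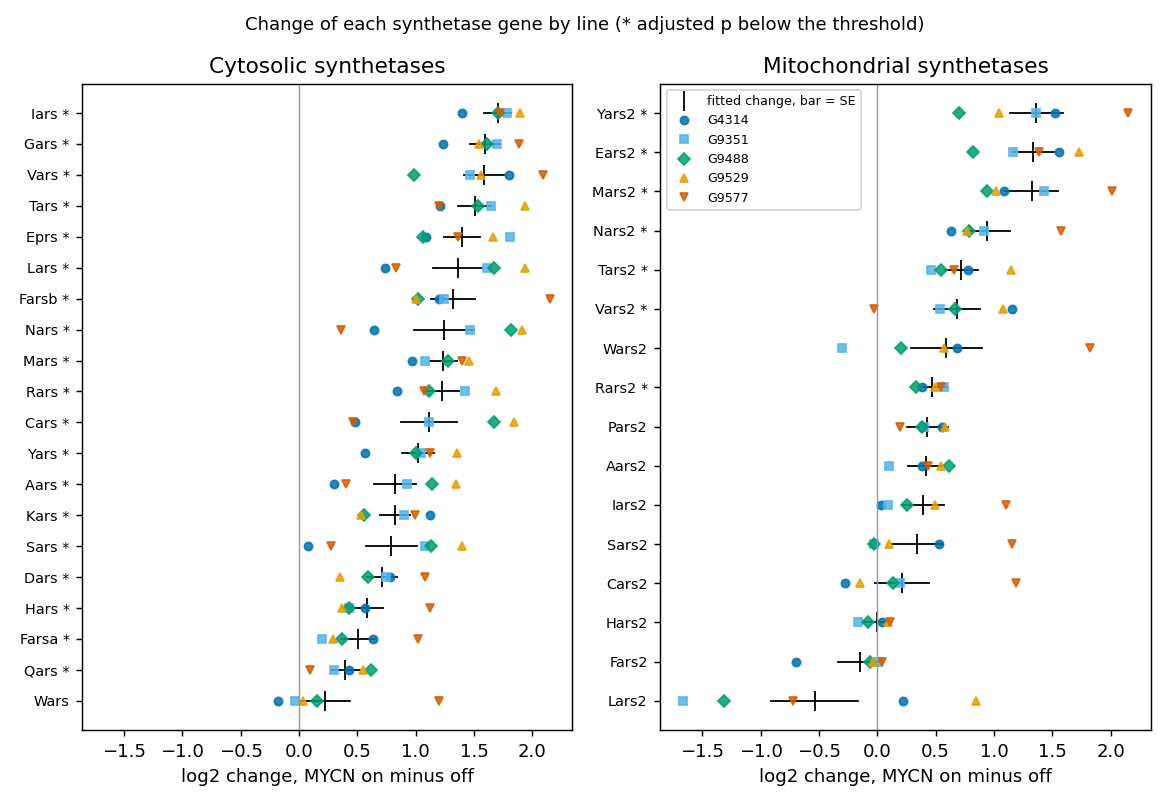
Log2 change, MYCN on minus off, of each synthetase gene in each of 5 lines (symbols), with the fitted change (vertical tick) and its SE (bar). An asterisk marks an adjusted p below 0.05. All 20 cytosolic fitted changes lie above 0, from 0.23 for Wars to 1.70 for Iars, and the mitochondrial ones run from -0.54 for Lars2 to 1.36 for Yars2.

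The direction was shared by the lines for the cytosolic genes. A change above 0 in all 5 lines was seen for 19 of 20 cytosolic and 9 of 16 mitochondrial genes, against 20.9% of all genes. A change below 0 in all 5 lines was seen for 0 members, against 23.2% of all genes. Line by line, the cytosolic median was 0.76 in G4314, 1.09 in G9351, 1.09 in G9488, 1.43 in G9529 and 1.10 in G9577. The mitochondrial median was 0.54, 0.30, 0.36, 0.57 and 0.88 in the same order, lower than the cytosolic one in each line. For 15 cytosolic genes the lowest MYCN-on library stood above the highest MYCN-off library, and so did 1 mitochondrial gene, Mars2, against 6.35% of all genes.

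Iars and Gars had the largest rises. Iars, the isoleucyl enzyme (mm9 chromosome 13, 49777499 to 49829636, plus strand), is a member of the multi-synthetase complex. It stood at 299, 402, 469.6, 469 and 382 CPM with MYCN on, in the order G4314, G9351, G9488, G9529, G9577 that is used for all values below, and at 114, 116, 144, 126 and 116 CPM with MYCN off. The lowest library with MYCN on was above every library with MYCN off, and the 5 levels with MYCN off lay close together. Its mean went from 123 ± 12.5 to 404 ± 70.7 CPM (SD, n = 5 lines), a log2 change of 1.70 (SE 0.12), or 3.25 times as high (edgeR's adjusted p 0.00265), and only 2 of all genes tested had a smaller p. Gars, the glycyl enzyme (chromosome 6, 54987995 to 55029498, plus strand), codes for the cytosolic and the mitochondrial form in 1 gene, which counts per gene do not separate. It had 467, 652, 615, 619 and 559 CPM with MYCN on. With MYCN off it had 198, 201, 202, 212 and 152 CPM, the lowest value being that of G9577. The groups were far apart, with means of 583 ± 72.6 and 193 ± 23.7 CPM (log2 change 1.59, SE 0.13, 3.02-fold, adjusted p 0.00265 in edgeR's test).

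Vars, the valyl enzyme (chromosome 17, 35137852 to 35153274, plus strand), does not belong to the complex and is not among the ATF4 targets as grouped here. Its levels were 412, 281, 487, 382 and 455 CPM with MYCN on and 118, 102, 247, 129.8 and 107 CPM with MYCN off. G9488 was the highest line in both groups and showed the smallest change, 0.98, and the groups did not overlap. The fitted change was 1.58 (SE 0.17, 2.99-fold, adjusted p 0.00304 in edgeR's test). Tars, the threonyl enzyme (chromosome 15, 11313418 to 11329413, minus strand), has both motifs in the stretch printed above. It stood at 191, 294, 245, 295 and 328 CPM with MYCN on and at 82.4, 93.8, 84.6, 77.0 and 143 CPM with MYCN off. G9577 was the highest line in each group, and the groups did not overlap (log2 change 1.51, SE 0.14, 2.84-fold, adjusted p 0.00265 in edgeR's test).

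Eprs, a fused gene for the glutamyl and the prolyl enzyme (chromosome 1, 187186974 to 187252234, plus strand), had the deepest counts of the family. It had 663, 939, 886, 882 and 796 CPM with MYCN on against 311, 269, 425, 278 and 311 CPM with MYCN off. G9488 was the highest line with MYCN off, and even so all libraries with MYCN on were above it (log2 change 1.40, SE 0.15, 2.63-fold, adjusted p 0.00308 in edgeR's test).

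The phenylalanyl enzyme of the cytosol is built from 2 kinds of subunit, coded by Farsa and Farsb, and these moved by unequal amounts. Farsb, the beta subunit (chromosome 1, 78414533 to 78485472, minus strand), had 126, 143, 160.2, 161 and 188 CPM with MYCN on against 54.5, 60.2, 78.7, 80.5 and 42.1 CPM with MYCN off. Farsa, the alpha subunit (chromosome 8, 87380885 to 87393156, plus strand), had 118, 90.2, 120.0, 164 and 159.7 CPM against 76.0, 78.6, 93.0, 134 and 78.6 CPM, and here the groups overlapped. The log2 changes were 1.32 (SE 0.19, adjusted p 0.00485) for Farsb and 0.50 (SE 0.15, adjusted p 0.0387) for Farsa in edgeR's test. Farsb changed more than Farsa in 5 of 5 lines, by 0.82 ± 0.25 (SD) on the log2 scale, with an exact two-sided sign-flip p of 0.0625, the smallest that 5 lines allow. The call of Farsa was lost without any 1 of the 4 lines G4314, G9351, G9488 and G9529 (adjusted p 0.137, 0.0759, 0.0775 and 0.0747 in edgeR's test). Exons of Farsb share 265 bases (10.4%) with Sgpp2, where reads were not counted.

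Further rises of more than 2-fold were called for Lars, Nars, Mars, Rars, Cars and Yars, the enzymes for leucine, asparagine, methionine, arginine, cysteine and tyrosine. Lars had 298, 564, 497, 528 and 277 CPM with MYCN on against 179, 185, 156, 138 and 155 CPM with MYCN off. The rise of Lars was 0.73 and 0.83 on the log2 scale in G4314 and G9577 and 1.61 to 1.93 in the other lines (fitted change 1.36, SE 0.21). Nars split the lines the same way, with 0.64 in G4314 and 0.36 in G9577 against 1.47 to 1.91 (fitted change 1.24, SE 0.26). Mars rose by 0.97 to 1.46 in each line (fitted change 1.24, SE 0.12), and 68 of its exon bases lie also in Ddit3, a gene on the other strand. Rars rose by 0.84 to 1.69 (1.23, SE 0.15), Cars by 0.46 to 1.84 (1.11, SE 0.24) and Yars by 0.57 to 1.36 (1.02, SE 0.14). Of these 6 genes Cars was the only one whose groups overlapped, through 85.1 CPM in G9577 with MYCN on and 99.8 CPM in G4314 with MYCN off. Without G9351 the adjusted p was 0.0554 for Nars and 0.0566 for Cars.

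Smaller rises were called for Aars, Kars, Sars, Dars, Hars and Qars. Aars, the alanyl enzyme, stood at 416, 512, 506, 821 and 407 CPM with MYCN on against 338, 269, 229, 324 and 308 CPM with MYCN off, with no overlap (log2 change 0.82, SE 0.18, adjusted p 0.0164, and 0.0659 without G9351). Of the 50-base words in its annotated transcripts, 13.5% also occur in transcripts of Exosc6. In the gene models used for counting, Aars shares no exon bases with another gene. Kars, the lysyl enzyme of both compartments, rose by 0.53 to 1.12 (0.82, SE 0.13), and its groups overlapped through 239.5 CPM in G9351 with MYCN on and 244 CPM in G9577 with MYCN off. Sars, the seryl enzyme, moved by 0.07 in G4314 and 0.27 in G9577 but by 1.08 to 1.40 in the other lines (0.79, SE 0.22). Its adjusted p was 0.111, 0.0742 and 0.0894 without G9351, G9488 or G9529. Dars, the aspartyl enzyme, rose by 0.71 (SE 0.13) and kept its call with any line left out. Qars, the glutaminyl enzyme, had the smallest rise that was called, 0.40 (SE 0.12), with levels of 179 and 168 CPM in G9577 against 43.4 to 124 CPM elsewhere. The adjusted p of Qars was between 0.0992 and 0.130 without G4314, G9351, G9488 or G9529.

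Wars, the tryptophanyl enzyme (chromosome 12, 110098240 to 110132384, minus strand), was the cytosolic gene with no call. It stood at 152, 94.7, 109.6, 125 and 193 CPM with MYCN on and at 173, 97.3, 98.6, 122 and 83.9 CPM with MYCN off. The line changes were -0.18, -0.04, 0.15, 0.04 and 1.20, so that G9577 alone was far from 0. The fitted change was 0.23 (SE 0.21, adjusted p 0.422 in edgeR's test), and without G9577 the adjusted p was 0.994.

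**Figure D2:**
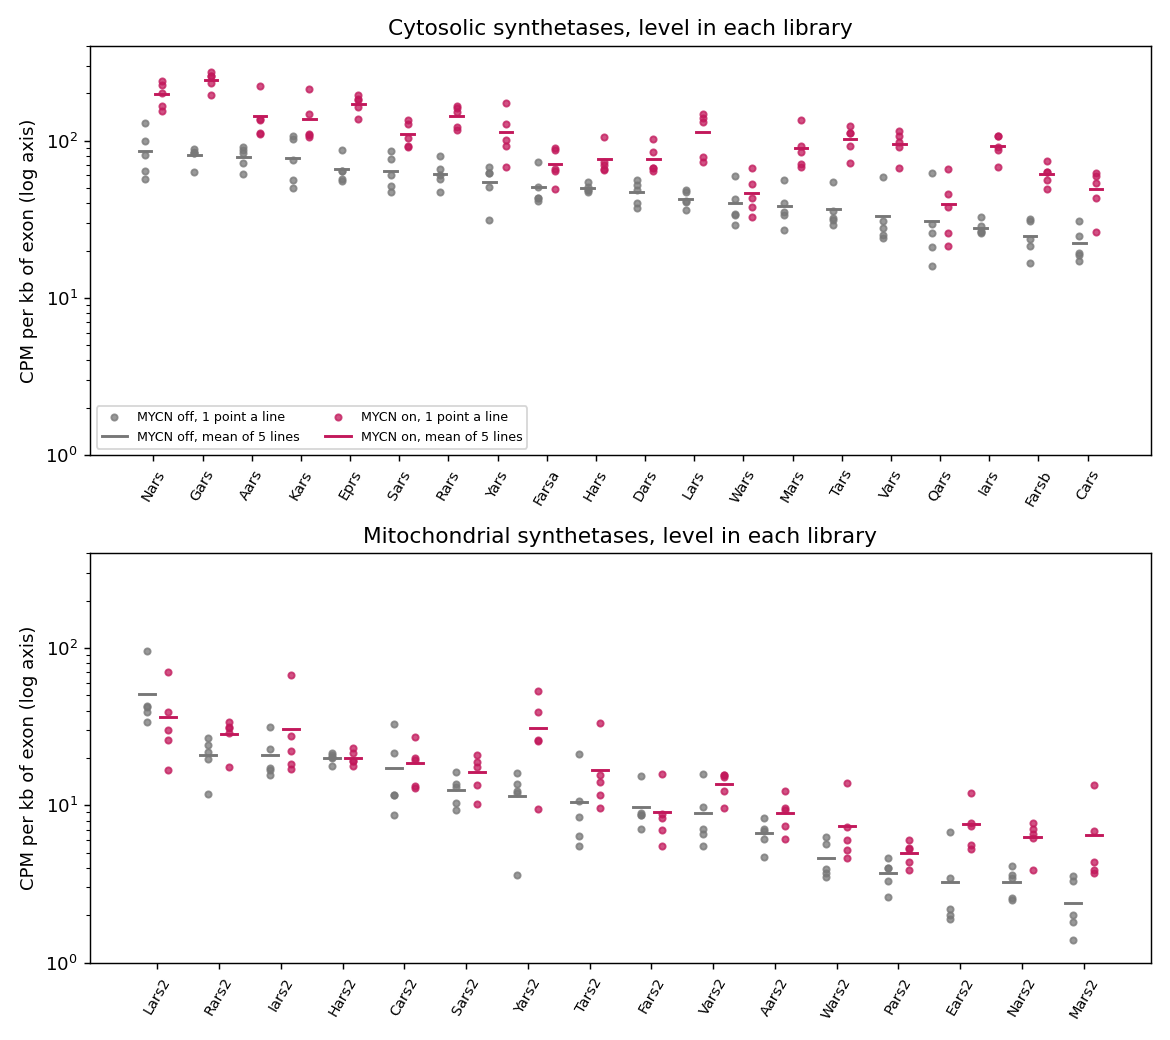
Level of each gene in each library, in CPM per kb of exon on a log axis, for MYCN off (grey) and MYCN on (magenta), with 1 point a line and a bar at the mean of 5 lines. Genes are ordered by their mean with MYCN off, and the cytosolic genes sit above most mitochondrial ones in both conditions.

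Per kb of exon, the scale on which genes can be compared, the median level of the cytosolic genes was 48.4 CPM per kb with MYCN off and 99.1 with MYCN on. For the mitochondrial genes it was 10.1 and 14.9. The highest cytosolic levels with MYCN off were those of Nars, 86.0 ± 29.2 CPM per kb (SD, n = 5), Gars, 80.7 ± 9.91, Aars, 79.0 ± 11.9, and Kars, 78.0 ± 26.0, which differ by less than their spread. With MYCN on Gars was the highest, at 244 ± 30.4 CPM per kb. Iars moved from place 19 to place 12 in the order of all 36 genes. Lars2, in place 9 with MYCN off, was the sole mitochondrial gene among the upper 20, and Mars2 was the lowest, at 2.40 CPM per kb.

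Among the mitochondrial enzymes, the largest rises were those of Yars2, Ears2 and Mars2. Yars2, the tyrosyl enzyme (chromosome 16, 16303058 to 16309733, plus strand), had 62.3, 15.0, 41.4, 40.5 and 85.2 CPM with MYCN on against 21.6, 5.72, 25.4, 19.5 and 19.0 CPM with MYCN off. G9351 was the lowest line in both groups, so the groups overlapped although the level rose in 5 of 5 lines (log2 change 1.36, SE 0.23, 2.58-fold, adjusted p 0.0072 in edgeR's test). Ears2, the glutamyl enzyme (chromosome 7, 129177676 to 129210600, minus strand) with the E-box shown above, had 36.6, 50.4, 78.0, 48.1 and 34.3 CPM against 12.3, 22.4, 44.1, 14.4 and 13 CPM. G9488 was the highest line in both groups, which overlapped, and the level rose in 5 of 5 lines (log2 change 1.34, SE 0.18, 2.53-fold, adjusted p 0.00421 in edgeR's test). Mars2, the methionyl enzyme (chromosome 1, 55294021 to 55296902, plus strand), had 12.5, 11.2, 19.7, 10.7 and 38.8 CPM against 5.80, 4.03, 10.2, 5.20 and 9.46 CPM. Its groups did not overlap (log2 change 1.32, SE 0.23, 2.5-fold, adjusted p 0.00804 in edgeR's test). Its lowest count was 43 reads, where counting alone gives an error of 15.25%, against 5.14% at the lowest cytosolic count of 378 reads.

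The other mitochondrial rises called were smaller. Nars2, the asparaginyl enzyme, rose by 0.94 (SE 0.20) on the log2 scale, and its adjusted p was 0.0591 without G9351. Tars2, the threonyl enzyme, rose by 0.72 (SE 0.14) and was called with any line left out. Vars2, the valyl enzyme, rose by 0.68 (SE 0.20), with changes from 0.54 to 1.15 in 4 lines and -0.03 in G9577. Rars2, the arginyl enzyme, rose by 0.47 (SE 0.12), between 0.34 and 0.57 in each line. Without G4314, G9351, G9488 or G9529 the adjusted p of Vars2 was 0.0706 to 0.120 and that of Rars2 0.0528 to 0.108, so neither was called.

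For 9 mitochondrial genes no change was called: Wars2 had a log2 change of 0.59, Pars2 of 0.43, Aars2 of 0.42, Iars2 of 0.39, Sars2 of 0.34, Cars2 of 0.21, Hars2 of -0.00, Fars2 of -0.15 and Lars2 of -0.54. In Wars2, Iars2, Sars2 and Cars2 the largest line change was that of G9577, between 1.10 and 1.82. Iars2 shares 22.0% of the 50-base words in its annotated transcripts with Rab3gap2. In the gene models used for counting, 85 of its exon bases (2.4%) lie also in Rab3gap2. Hars2, the histidyl enzyme, stood at 67.4, 55.7, 60.2, 72.1 and 59.5 CPM with MYCN on and at 65.6, 62.3, 63.7, 67.8 and 55.3 CPM with MYCN off. The line changes lay between -0.16 and 0.11 on the log2 scale, on both sides of 0. Its cytosolic counterpart Hars, whose gene starts a few bases away and runs the other way, had 138, 131, 146, 129.9 and 209.8 CPM against 93.4, 96.9, 109, 101 and 96.5 CPM. The groups of Hars did not overlap (log2 change 0.58, SE 0.14, adjusted p 0.0217 in edgeR's test), but its call was lost without G4314, G9351 or G9488 (adjusted p 0.0803, 0.069 and 0.0506). Both genes share 50-base words in annotated transcripts, 5.87% of those of Hars, but no exon bases in the gene models used for counting. Whether reads from these words were counted is not known here.

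Lars2, the leucyl enzyme (chromosome 9, 123276058 to 123371782, plus strand), was the member with the widest spread among lines. It had 152, 117, 65.4, 275 and 100.3 CPM with MYCN on and 131, 373, 163, 153 and 166 CPM with MYCN off. The line changes were 0.22, -1.67, -1.32, 0.84 and -0.73, with no shared sign, and the fitted change had an SE of 0.37 (adjusted p 0.294 in edgeR's test).

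**Figure D3:**
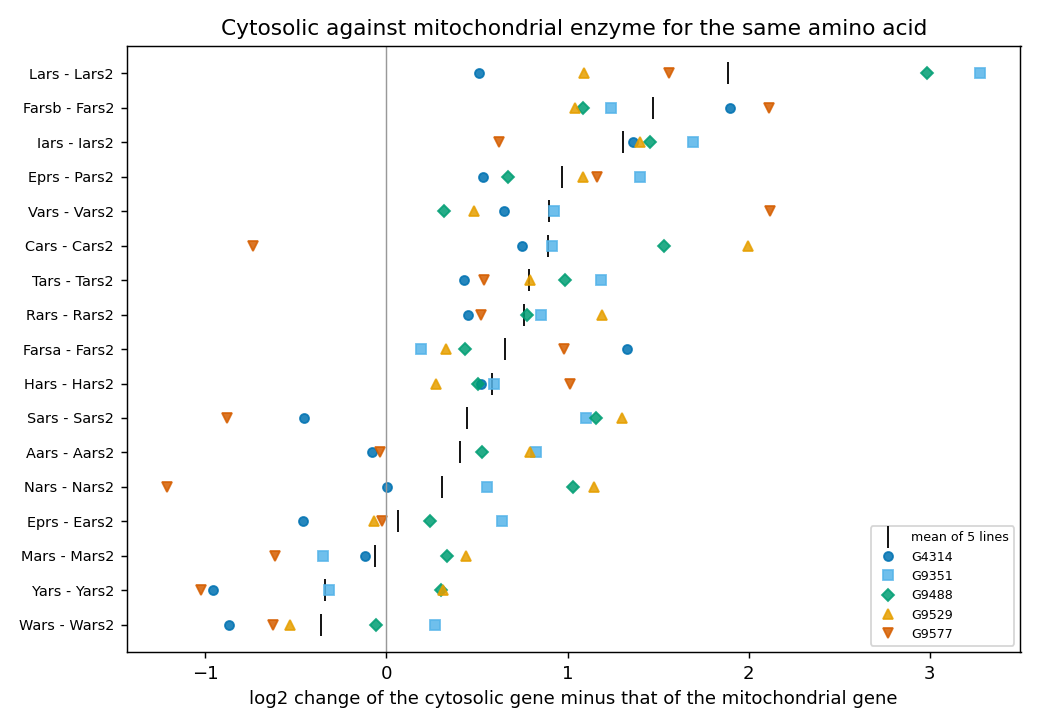
For each amino acid, the log2 change of the cytosolic gene minus that of the mitochondrial gene, in each of 5 lines (symbols) and as the mean of the lines (tick). Of 17 pairs, 9 lie above 0 in all 5 lines and 0 lie below 0 in all 5.

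Matching the enzymes for the same amino acid gave 17 pairs, with Fars2 set against both subunits and Eprs against both Ears2 and Pars2. The cytosolic gene had the larger change in all 5 lines in 9 pairs: those for leucine, isoleucine, threonine, valine, arginine, histidine and proline, and both phenylalanine pairs. The mean difference ran from -0.36 for tryptophan to 1.88 for leucine and was above 0 in 14 pairs. In 0 pairs did the mitochondrial gene change more in every line, and for methionine, tyrosine and tryptophan it changed more on average. With 5 lines an exact sign-flip test of 1 pair cannot go below p = 0.0625, the value of each of the 9 pairs, so no single pair could pass 0.05. For isoleucine the difference was 1.31 (0.62 to 1.69), and for valine 0.90 (0.32 to 2.12). For tyrosine the change of Yars2 was the larger in G4314, G9351 and G9577 and that of Yars in G9488 and G9529.

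Summed over the set, the cytosolic genes took 5348, 6783, 6887, 7616 and 6504 CPM with MYCN on and 3092, 2799, 3078, 2966 and 3152 CPM with MYCN off. The sum was 1.73 to 2.57 times as high with MYCN on. That of the mitochondrial genes was 1.33, 0.786, 1.10, 1.58 and 1.53 times as high, with G9351 the line in which it was lower. The ratio of cytosolic to mitochondrial CPM was 7.45, 11.5, 9.42, 8.47 and 6.06 with MYCN on against 5.71, 3.74, 4.62, 5.21 and 4.49 with MYCN off, higher with MYCN on in each line. Leaving out Lars2, chosen after its level was seen, gave 9.45, 14.4, 10.3, 12.2 and 6.68 against 7.52, 7.47, 6.11, 7.12 and 5.87, again higher in each line.

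By role, all 8 cytosolic members of the multi-synthetase complex rose (Dars, Eprs, Iars, Kars, Lars, Mars, Qars and Rars), with a median log2 change of 1.23. Of the 12 outside it 11 rose, with a median of 1.07. Enzymes are also split into class I and class II by the fold of their catalytic domain: 9 of 10 class I genes rose, with a median of 1.23, and 10 of 10 class II genes, with a median of 0.82. The fused gene Eprs was placed in class I by its glutamyl part alone, and its prolyl part was not counted in class II. The 12 cytosolic genes known as ATF4 targets had a median of 1.24 with 11 higher, and the 8 others a median of 0.76 with 8 higher. In G9351, G9488 and G9529 the median of the ATF4 targets was 1.29, 1.40 and 1.605 against 0.82, 0.60 and 0.54 for the others. It was 0.69 against 0.81 in G4314 and 1.16 against 1.07 in G9577, where both groups stood close together. These groups are described and not tested.

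**Figure D4:**
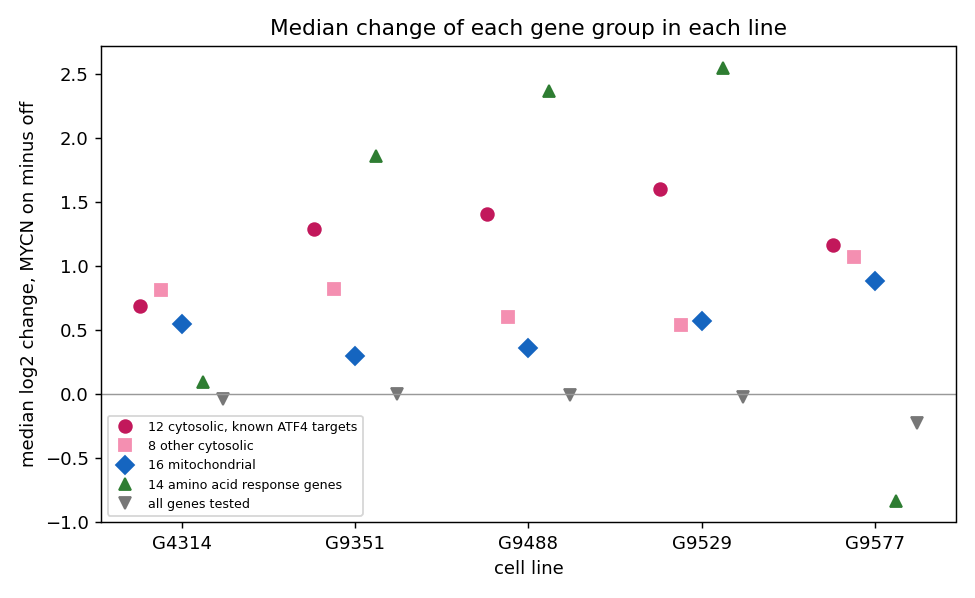
Median log2 change, MYCN on minus off, in each line (axis: cell line) for 12 cytosolic genes known as ATF4 targets, 8 other cytosolic genes, 16 mitochondrial genes, 14 amino acid response genes that are not synthetases, and all genes tested. The amino acid response genes range from -0.83 in G9577 to 2.55 in G9529, while the synthetase medians lie between 0.30 and 1.605 in every line.

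A list of 14 other amino acid response genes showed how that response differed among the lines. Its median was 0.09 in G4314 and -0.83 in G9577 against 1.86, 2.37 and 2.55 in G9351, G9488 and G9529, and 4 of 14 rose in the fit over all lines (28.6%, against 15.3% of all genes), or 1 with no term for the line. The 3 with the smallest p were Psat1 (log2 change 2.81, SE 0.18) and Phgdh (2.74, SE 0.26), enzymes of serine synthesis, and Asns (1.81, SE 0.26), which makes asparagine. The fourth, named after its value was seen, was Atf4 itself, at 0.85 (SE 0.21, adjusted p 0.0234). Without G9577 9 of the 14 rose, when 2244 of all 12925 genes did. DESeq2 called 8 of the 14, with 2283 of all 12835 genes higher. Counted after this division was seen, 7 of the 20 cytosolic genes (35.0%) had a smaller change in both G4314 and G9577 than in every other line: Aars, Cars, Lars, Nars, Rars, Sars and Tars. The same held for 0 of 16 mitochondrial genes and for 20.8% of all genes tested.

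Other genes of the tRNA charging pathway were counted from lists, whose counts stand against the 15.3% of all genes called higher. With no term for the line, edgeR called 215 of all 12835 genes higher, with 2840 at an unadjusted p under 0.05. DESeq2 called 2283 higher and 2997 lower. Of all genes, 852 of 12829 were called higher without G4314, 813 of 12870 without G9351 and 2244 of 12925 without G9577. The complex also holds 3 proteins without synthetase activity, and all 3 genes rose: Eef1e1 by 1.79 (SE 0.28), Aimp2 by 1.39 (SE 0.24) and Aimp1 by 0.74 (SE 0.12) on the log2 scale. The factors that carry charged tRNA to the ribosome or reload that carrier rose in 6 of 6 cases, with Eef1g at 1.48 (SE 0.12), Eef1b2 at 1.43 (SE 0.15) and Eef1d at 0.87 (SE 0.14), all parts of the exchange factor for the carrier. With no term for the line, 2 of the 3 complex proteins and 1 of these 6 factors were called. Of 14 genes for tRNA maturation and export 10 rose, led by Rpp40 (2.11, SE 0.24), a subunit of RNase P, which trims the front end of tRNA. Rpp40 had only 12 to 50 reads per library with MYCN off, and its groups overlapped. Elac2, which trims the back end, rose by 1.11 (SE 0.15), and Trnt1, which adds the CCA tail, by 0.99 (SE 0.15). This count was 4 without G4314, 5 without G9351 and 0 with no term for the line, where edgeR gave 7 an unadjusted p under 0.05, and Trnt1 shares 19.21% of its exon bases with Crbn. Of 9 other genes of charging, among them editing enzymes and factors that convert a charged amino acid, 2 rose, a share of 22.2% that is near that of all genes: Aarsd1, an editor of mischarged alanyl tRNA, by 0.97 (SE 0.19), and Pstk, a kinase on the way to selenocysteine, by 0.92 (SE 0.21). Their adjusted p were 0.0502 for Aarsd1 without G4314 and 0.0671 for Pstk without G9351, so that the count was 1 in each of these fits. The count was 3 without G9577 and 0 with no term for the line (1 at an unadjusted p under 0.05 in edgeR), and DESeq2 called 3 higher and 1 lower. Sepsecs, named after its value was seen, was lower in 5 of 5 lines, as were 23.2% of all genes. Its log2 change was -0.40 (SE 0.17), not called in edgeR's test (adjusted p 0.103). Tarsl2, a threonyl synthetase gene that is not among the 36, is on this list and was not called. Its log2 change was 0.48 (SE 0.33, adjusted p 0.294 in edgeR's test), above 0 in 4 of 5 lines.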

How the data were processed

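The authors deposited 1 table of unnormalized read counts per library, which featureCounts 1.6.0 produced on mm9 gene models with strand ignored, per the file headers. By the recorded command, multi-mapping reads and reads over more than 1 gene were left uncounted. The submitters' processing notes name bcl2fastq 1.8.4 and STAR 2.5.2a. The members and gene lists were chosen with earlier results of these data known.

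Low counts were removed (edgeR's filterByExpr, minimum 10), leaving 12835 genes, and libraries were scaled with TMM factors. On versus off was tested two-sided by edgeR's quasi-likelihood F test (version 4.0.16, in R 4.3.3), with the line as block, p adjusted by Benjamini-Hochberg over the 12835 genes and called under 0.05. The script was tested on simulated counts, drawn with less spread than these data and with the same change in every line. That run checks the code and not its error rate on these data. The SE was taken as the size of the log2 change over the root of F. For 1 line, a change is log2 CPM (prior count 2) on minus off, and line medians and pairs use these values. Levels are TMM-scaled CPM, also per kb of the exon length in the files. All 36 members are named, and of each related list the called genes with the 3 smallest p.

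The labels pair the libraries by line: deviations from the group means correlated with r of 0.721 to 0.873 within a line, and at most 0.273 between lines. No library was a copy of another. Nothing in the labels says whether cultures were repeated. With the line as block, p-values set the on-off change against its spread among these 5 lines. Spread between repeated cultures cannot be told apart from it. Alternatives were no replicate block, DESeq2 1.42.0, limma-voom (limma 3.58.1), RLE factors, library size alone, other filters, and each line left out. Sequence windows came from RefSeq (GRCm38.p6) and 50-base words from GENCODE transcripts of the same build. Coordinates of genes are in mm9.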

Additional observations from a re-analysis of the deposited data

Results flagged for a closer look

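In 110 sets of 5 values (CPM with MYCN on, CPM with MYCN off and log2 change by line, for each member, and the medians of both sets by line), 15 had 1 value set far apart from the other 4, by a gap of more than 0.71 of the whole range. For 5 independent, normally distributed values, chance gives this in about 1 in 20 sets. These sets share the same lines and values, so that rate does not apply to them as it stands.

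Of these, 10 were values of G9577, the line without neuroendocrine markers. With MYCN on, it was the highest line for Hars (209.8 CPM, others 129.9 to 146.2), Iars2 (238.4 CPM, others 60.57 to 96.95), Tars2 (148.4 CPM, others 42.44 to 69.34) and Wars2 (61.22 CPM, others 20.23 to 31.88). With MYCN off, it was the highest for Tars (142.8 CPM, others 76.96 to 93.83) and Fars2 (29.05 CPM, others 13.47 to 16.94) and the lowest for Gars (151.6 CPM, others 198.5 to 212). Its log2 change was the largest for Farsb (2.151, others 1.0 to 1.245), Hars (1.118, others 0.3651 to 0.5645) and Wars (1.196, others -0.1846 to 0.1525).

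In G9488 with MYCN off, Eprs (425.1 CPM, others at most 311.3) and Vars (246.5 CPM, others at most 129.8) were high. Aars was high in G9529 with MYCN on (820.8 CPM, others at most 511.6), and Lars2 in G9351 with MYCN off (372.7 CPM, others at most 166). The log2 change of Fars2 in G4314 was -0.695, against -0.064 to 0.04165 in the other lines.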

How the results depend on the processing

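Without the replicate block, the paired analysis given up, edgeR called 10 cytosolic genes and 0 mitochondrial genes higher and none of either lower, with 17 and 4 at an unadjusted p under 0.05. That fit called 215 of all 12835 genes higher and 59 lower, with 2840 at an unadjusted p under 0.05 in edgeR. With each line left out in turn, the count of cytosolic rises ran from 12 to 19, that of mitochondrial rises from 4 to 7, and over all genes from 813 to 2244 higher and from 916 to 2249 lower. G9351 gave the lowest cytosolic and mitochondrial counts. Fewer samples entered each of these fits. In all 12 settings the cytosolic median stayed between 0.9832 and 1.274 and the mitochondrial one between 0.4091 and 0.508. Eprs, Farsb, Gars, Iars, Lars, Mars, Rars, Tars and Vars were called in every setting. DESeq2 and limma-voom called 19 and 7, RLE factors 17 and 7. Only 2 genes near 0 changed sign: Hars2, at 0.001309 with no replicate block, 0.007859 with no filter on low counts and -0.04368 to 0.05521 with a line left out (0.02504 without G9351), and Cars2, at -0.01663 (without G9577) to 0.3235 with a line left out. The cause was not tested. Depth limits the lowest genes: among the synthetases Mars2 had as few as 43 reads, and on the related lists Rpp40 had as few as 12.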
